A study of Homo sapiens with 52 samples.

Results

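N1302 is the code name of a small molecule that the labels list as an inhibitor of histone deacetylases (HDACs) and that the study describes as 1-alaninechlamydocin, a cyclic tetrapeptide carrying an epoxide. RH4, an established cell line of fusion-positive rhabdomyosarcoma (FP-RMS) that carries the PAX3-FOXO1 fusion, was exposed to 1 µM N1302 for 6 h, and its control received DMSO, the solvent, for 6 h, at 0.1% by the labels (the study's methods state a lower final concentration). Each condition was 1 RNA-seq library, and the column names place both on the same flow cell. These are 2 of the 52 samples of a series on chemical modulators of chromatin in FP-RMS cells. A gene was tested when its level was 5 TPM (transcript share scaled to a total of 1000000 per library) or more in either library, which held for 10866 of the 27043 genes listed. The measure throughout is the difference of log2(TPM + 1), N1302 minus DMSO, and a gene is said to have risen or fallen only where that difference was at least 1, that is 2-fold on this scale.

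HDACs remove acetyl groups from lysines of histones and other proteins. The class I enzymes HDAC1, HDAC2 and HDAC3 work in the nucleus inside corepressor complexes, and their inhibition is known to raise histone acetylation, to switch on genes that such complexes keep silent and to lower many transcripts that depend on large enhancers. FP-RMS cells resemble stalled muscle precursors, and a small set of core regulatory transcription factors (CR TFs), which bind the enhancers of their own genes and of each other, is known to hold them in that state. The series asks which chromatin regulators this CR TF transcription needs, and the N1302 library bears on the HDACs.

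With 1 library for each condition there was no replicate check, and no p-value is given. Fold changes carry 95% intervals from exact Clopper-Pearson limits on read numbers recovered from the TPM values, and these cover counting error only. The DMSO library held 26632875 recovered reads and the N1302 library 14887582, so that 5 TPM in a gene of median length stood for 158 and 110 reads. The 7 other DMSO libraries of the series (3 of a time course in RH4 and 4 of a compound screen, titled RH41 but with RH4 given as the cell line) served as a check on the control. Against their common level the DMSO library of N1302 stood apart with the GC content of the transcript: with genes split into 10 equal bins by GC, it differed from the median of all 8 DMSO libraries by -0.87 in the highest bin and 0.32 in the lowest, a gap of -1.18, where the same gap was between -0.13 and 0.19 in the other 7. In the N1302 library it was 0.35, also outside that range, as were the 0.38 and 0.51 of libraries treated with 5 and 0.5 µM of another HDAC inhibitor, LAQ824. The 6 h DMSO library of the time course, set against the DMSO of N1302, was at least 2-fold higher for 1212 of 10887 genes (11.1%) and lower for 428 (3.93%), while the 6 pairs of screen DMSO libraries differed 2-fold for 0.617% to 0.833% of genes. List medians are therefore also given against the 6 h time course DMSO, whose sequencing run is not given in the sources used here.

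More genes fell than rose under N1302. Of the 10866 tested genes 2775 (25.5%) fell and 1385 (12.7%) rose, with a median difference of -0.31 and quartiles of -1.02 and 0.41. TPM values are shares of a fixed total, so a change in total RNA per cell would not be seen, and fewer cells of a type cannot be told apart from less RNA per cell. Median-ratio scaling over the 7397 genes of at least 10 TPM in both libraries moved the median of all genes by 0.24, to -0.07, and gave 1837 higher genes (16.9%) and 2080 lower (19.1%). Higher genes thus made up 33.3% of all calls as deposited and 46.9% after scaling. Centring each gene on genes of like GC content, possible for 10713 genes, gave 1633 higher (15.2%) and 1569 lower (14.6%), a share of 51.0% higher. Both steps move genes as a group, and GC centring sets each bin to a centre of 0, so its even split follows from how it is made. Against the 6 h time course DMSO alone the excess of falls was larger, with 1267 genes higher and 3360 lower. The lists below are read beside the median and the called shares of all genes. In every list a gene under 5 TPM in 1 library was tested only if it reached 5 TPM in the other, so counts of low genes lean toward change. Falls were more frequent among longer transcripts, as given below, and the part of length in the list counts was not tested.

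Most individual calls held against the other controls. Of the 1385 genes that rose, 1125 (81.2%) lay above all 8 DMSO libraries, and of the 2775 that fell, 2615 (94.2%) lay below all 8. Without any threshold, 23.5% of tested genes lay above and 48.0% below all 8. A 2-fold difference the same way against the 6 h time course DMSO as well was seen for 860 of the higher genes (62.1%) and 2053 of the lower (74.0%). The median of the tested genes against that library was -0.36. The scatter of the tested genes shows a cloud that widens at low levels, with neuronal genes leaving the diagonal upward and CR TFs downward.

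**Figure D1:**
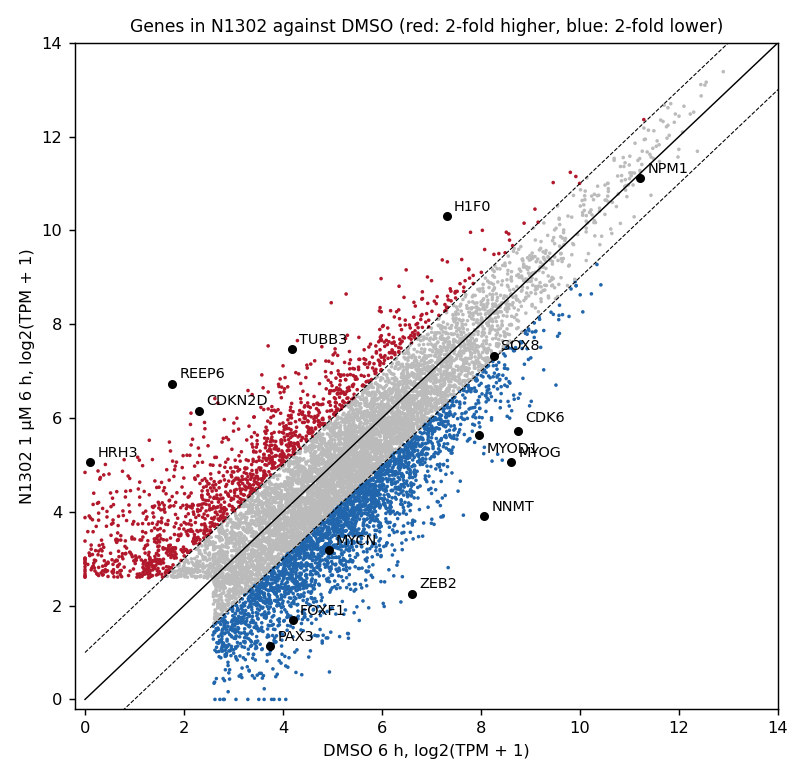
Level of each of the 10866 tested genes in DMSO (x axis) and N1302 (y axis), both as log2(TPM + 1), with 1 point per gene. Genes at least 2-fold higher (1385) and lower (2775) are coloured, and named examples such as MYOG, which fell from 391 to 32.2 TPM, and TUBB3, which rose from 17.2 to 175 TPM, are labelled.

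All 6 CR TFs were lower under N1302, and 5 of them fell (83.3% of the list, beside 25.5% of all tested genes). The list follows the study, whose main text names these factors except FOXF1, with PAX3 as part of the fusion. The study reports that HDAC inhibitors, N1302 among them, lowered such factors. This share is therefore no independent evidence of a direction. The median difference was -2.42, and against the time course DMSO it was -3.22. MYOG, the muscle factor myogenin that drives terminal differentiation, stood at 391 TPM in its DMSO and 32.2 TPM in N1302, with 546 to 633 TPM in the 7 other DMSO libraries. The DMSO level was 12.1 times the N1302 level (counting interval 10.9 to 13.6), a difference of -3.56. The gene lies at hg19 chr1:203052257-203055166. Its promoter, 250 bases before to 50 bases after the RefSeq start (GRCh38.p14, chr1:203085963-203086262, minus strand), is shown because MYOG had the lowest difference of the 6. The capitals mark the only E-box, the letters CANNTG bound by factors such as MYOD1 and MYOG, searched on both strands.
MYOG: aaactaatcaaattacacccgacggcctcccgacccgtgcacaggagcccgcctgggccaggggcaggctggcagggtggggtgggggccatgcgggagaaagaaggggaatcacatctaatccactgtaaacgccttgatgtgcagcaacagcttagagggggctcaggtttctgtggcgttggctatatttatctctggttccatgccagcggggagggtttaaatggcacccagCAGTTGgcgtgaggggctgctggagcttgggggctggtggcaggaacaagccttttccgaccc
Such an E-box stood in 58.6% of the 8830 tested genes with a promoter in the table and in 59.2% of the 2309 of them that fell, and the narrower form CAGCTG, counted within it, in 16.8% and 16.5%, so neither set the falling genes apart.

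MYOD1, the factor that commits cells to the muscle lineage (hg19 chr11:17741110-17743678), went from 249 to 48.5 TPM, a DMSO level 5.13 times that of N1302 (4.71 to 5.59). PAX3, which guides muscle precursors and forms the 5′ part of the fusion, went from 12.4 to 1.19 TPM (10.4 times, 7.12 to 15.9). The gene-level values do not separate the fusion from the intact allele, and FOXO1, its 3′ partner, also fell, from 51.1 to 13.4 TPM. FOXF1, a forkhead factor of mesenchyme, went from 17.3 to 2.22 TPM (7.80 times, 5.64 to 11.1) on 40 reads in N1302. MYCN, a growth-promoting MYC family member, went from 29.4 to 8.10 TPM (3.64 times, 3.09 to 4.30). SOX8, an SRY-box factor, was the exception in size: at 305 TPM in DMSO and 160 TPM in N1302 its difference of -0.93 missed 2-fold, although it was -1.64 against the time course DMSO and -1.91 after GC centring. In each of the 6 the DMSO of N1302 was itself lower than every other DMSO library, so that the differences against the other controls were larger throughout. The N1302 level lay below all 8 DMSO levels for every CR TF, as it did for 48.0% of all tested genes.

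**Figure D2:**
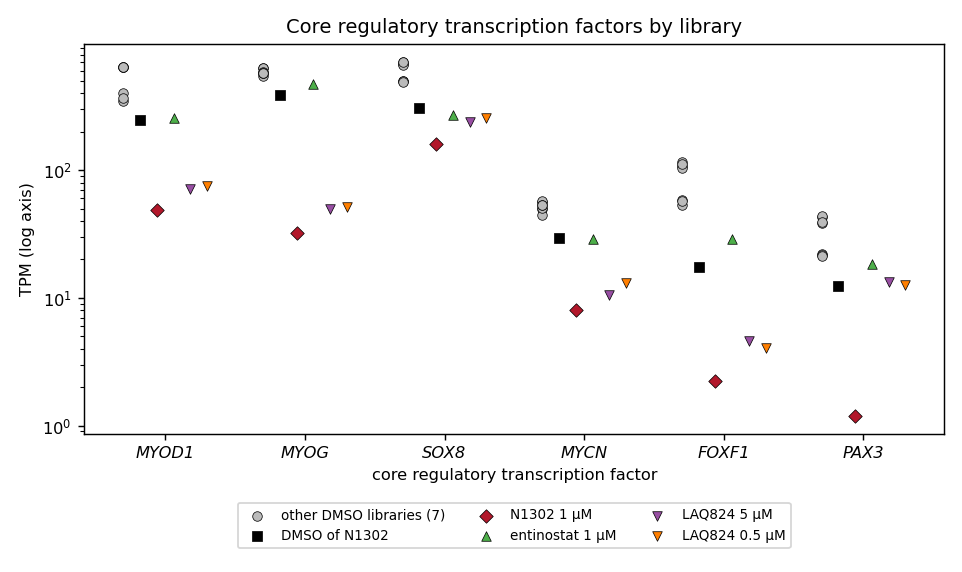
TPM (log axis) of the 6 CR TFs in single libraries: the DMSO of N1302, the 7 other DMSO libraries, N1302, entinostat and LAQ824 at 2 doses. N1302 is below all 8 DMSO points for each gene, for example MYOG (32.2 against 391 to 633 TPM), FOXF1 (2.22 against 17.3 to 115 TPM) and SOX8 (160 against 305 to 707 TPM).

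Partners of the CR TFs went the same way. Of 17 tested myogenic cofactors, 10 fell (58.8%, beside 25.5% of all tested genes) and none rose (median -1.15, and -1.68 against the time course DMSO). All 17 lay below all 8 DMSO libraries, beside 48.0% of all tested genes. TCF12, an E-protein with which MYOD1 pairs to bind DNA, fell from 296 to 63.2 TPM and its relative TCF4 from 41.5 to 6.76 TPM. EYA4, a transcriptional coactivator, fell from 66.8 to 12.8 TPM, and MEF2C, a late muscle factor, from 40.5 to 17.7 TPM. Among 14 tested marker genes of FP-RMS 7 fell and 1 rose (median -1.13, against the time course -1.72). TFAP2B, a PAX3-FOXO1 target used in diagnosis, fell from 10.8 to 0.468 TPM, and its level in the other DMSO libraries was 35.4 to 51.2 TPM. IGF2, a growth factor of this tumour, fell from 16.1 to 4.04 TPM and MET, a receptor tyrosine kinase, from 116 to 26.2 TPM. FGFR4, a receptor highly expressed in FP-RMS, stood at 389 and 399 TPM, a difference of 0.03, though -0.63 against the time course DMSO.

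The contractile products of the muscle programme moved less than its regulators. Of 24 tested sarcomere genes 6 fell, a share near the 25.5% of all tested genes, and none rose. Their median was -0.09 (0.14 against the time course DMSO), above the median of all genes. DES, the muscle intermediate filament, stood at 514 and 671 TPM, and TPM2, a tropomyosin, at 1027 and 1465 TPM. The fallen members split by control: SMYD1, a muscle methyltransferase, fell from 8.94 to 1.44 TPM and by -1.98 against the time course DMSO too, whereas ACTC1, an actin of embryonic muscle, fell from 1199 to 399 TPM but differed by only -0.13 from the time course DMSO. Only 1 of the 6 falls held against both controls. Of 12 myoblast fusion genes 4 fell (median -0.70, and -0.15 against the time course DMSO), with 1 of them, CAV3 of the muscle caveolae (199 to 14.2 TPM), doing so against both controls. DYSF, a membrane repair protein, changed sign between them, at -1.27 and 0.68. At the neuromuscular synapse 5 of 18 genes fell (27.8%, near the 25.5% of all genes) and 1 rose (median -0.86, and -1.28 against the time course DMSO). The synapse organisers DOK7 (11 to 1.11 TPM) and MUSK (25.4 to 4.49 TPM) and the sodium channel SCN4A (16.1 to 2.46 TPM) fell, and CKB, brain-type creatine kinase, rose from 120 to 513 TPM.

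The genes of the HDACs did not move as a group. Of 10 tested, 2 fell and 1 rose, with a median of -0.30 (-0.70 against the time course DMSO). HDAC1 stood at 216 and 221 TPM and HDAC3 at 69.3 and 96.1 TPM, and HDAC2 at 254 and 157 TPM differed by -0.68. HDAC8, the remaining class I gene, fell from 38.3 to 16.4 TPM, though only by -0.78 on the other control. HDAC7, a class IIa member, fell on every control, from 62.2 to 7.37 TPM with 74.2 to 133 TPM in the other DMSO libraries, a DMSO level 8.44 times that of N1302 (7.36 to 9.71). For HDAC5 and HDAC10 the sign depended on the control: HDAC10 went from 4.34 to 11.2 TPM, a difference of 1.20, but was at 19.5 to 28.7 TPM in the other DMSO libraries and differed by -1.08 from the time course DMSO, and HDAC5 gave 0.70 and -1.73. HDAC4, HDAC6 and HDAC11 differed by -0.76, -0.63 and 0.08. HDAC9 was under the filter at 1.89 and 0.851 TPM.

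Most of the writers of acetylation fell. Of 13 acetyltransferase genes, all tested, 9 fell (69.2%) and none rose, all 9 against both controls, with a median of -1.53 (-1.96 against the time course DMSO). Among all genes the difference went down with transcript length on both controls, as given below. The part of length in this count was not tested. EP300 and CREBBP, which encode the enhancer acetyltransferases p300 and CBP, fell from 34.6 to 4.20 TPM and from 44.5 to 7.45 TPM. NCOA2, a nuclear receptor coactivator, fell from 22.9 to 1.53 TPM, a DMSO level 15 times that of N1302 (12.1 to 18.6). HAT1, which acetylates new histone H4 in the cytoplasm, was among the 4 that did not reach 2-fold, at 321 and 223 TPM.

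Elongation factors, corepressors and Polycomb genes gave mixed counts. Of 16 genes for BET proteins, Mediator and P-TEFb (the kinase complex that releases paused polymerase) 10 fell and 1 rose, with a median of -1.15 (-1.06 against the time course DMSO), which GC centring moved to -0.39 with 6 lower and 3 higher. The Mediator subunit MED13 fell from 66.5 to 8.71 TPM. HEXIM1, an inhibitor of P-TEFb, rose from 13.5 to 44.3 TPM, by 0.75 against the time course DMSO. Of 30 corepressor genes 8 fell (26.7%), all of them on both controls, and 4 rose (13.3%), none of them on both, shares close to the 25.5% and 12.7% of all tested genes. Their median was -0.69, and -0.90 against the time course DMSO. NCOR1, the scaffold that HDAC3 binds, fell from 55.9 to 11.9 TPM, and REST, the repressor of neuronal genes outside neurons, from 50.5 to 10.7 TPM (37.7 to 46.0 TPM in the other DMSO libraries). Of 18 Polycomb genes, whose products write repressive histone marks, 9 fell and 2 rose (median -0.91, and -1.15 against the time course DMSO). SUZ12 went from 92.6 to 35.6 TPM, and after GC centring 4 of the list were lower.

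Against the own DMSO the highest list median belonged to neuronal genes known as targets of REST. Against the time course DMSO the CDK inhibitor list was higher (1.98), and after GC centring the replication-dependent histones were level with it (1.55, beside 1.54). Of 52 listed, 24 passed the filter, and 17 of them rose (70.8%, beside 12.7% of all tested genes) and none fell. A gene silent in DMSO could pass only by being high in N1302, so this count leans upward by construction, and the other 28 stayed under 5 TPM in both libraries. The median was 1.83, and 1.67 against the time course DMSO, where 13 of the 17 also rose. SYN1, which encodes the synaptic vesicle protein synapsin I, went from 0.124 to 16.8 TPM on 4 and 380 reads, 136-fold with a counting interval of 52.6 to 501, and was at 0.0380 to 0.192 TPM in the other DMSO libraries. The gene lies at hg19 chrX:47431300-47479256. Its promoter (RefSeq, GRCh38.p14, chrX:47619808-47620107, minus strand) is shown because it holds both parts of the REST element, TCAGCACC and GGACAG, here in capitals and 2 bases apart.
SYN1: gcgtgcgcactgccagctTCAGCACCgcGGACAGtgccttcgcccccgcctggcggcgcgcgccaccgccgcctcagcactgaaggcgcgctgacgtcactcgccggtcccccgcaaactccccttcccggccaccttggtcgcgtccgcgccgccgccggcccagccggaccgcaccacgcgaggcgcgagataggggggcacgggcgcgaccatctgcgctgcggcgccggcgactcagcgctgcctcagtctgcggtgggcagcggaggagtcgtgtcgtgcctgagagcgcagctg
Of the 18 tested neuronal genes with a promoter in the table, 2 held TCAGCACC and 9 held GGACAG on either strand. The other gene with both was CELSR3, a cadherin receptor, which stood at 7.56 and 7.29 TPM, a difference of -0.05. The shares over the 8830 tested genes with a promoter were 1.43% and 19.8%.

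RAB3A, a GTPase of synaptic vesicles, went from 0.199 to 28.2 TPM, 142-fold on 3 reads in DMSO (interval 48.1 to 692). NEFH, the heavy neurofilament, went from 0.214 to 17.4 TPM (81.1-fold, 40.8 to 189), and the RNA-binding protein gene ELAVL3 from 0.0425 to 10.9 TPM on 2 reads in DMSO (257-fold, 70.7 to 2133). TUBB3, the neuronal beta-tubulin, was already expressed and rose from 17.2 to 175 TPM (10.2-fold, 9.05 to 11.5), above the 10.6 to 31.7 TPM of the other DMSO libraries. Complexin CPLX1 had 0 reads in DMSO and 81 in N1302, at least 38.6-fold higher when DMSO is set at 3 reads. Not all neuronal genes moved: L1CAM, an adhesion molecule, stood at 186 and 164 TPM, and CDK5R1, an activator of CDK5, at 11.4 and 5.79 TPM. In all, 14 of the 24 lay above all 8 DMSO libraries and 5 below them, beside 23.5% and 48.0% of all tested genes.

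**Figure D3:**
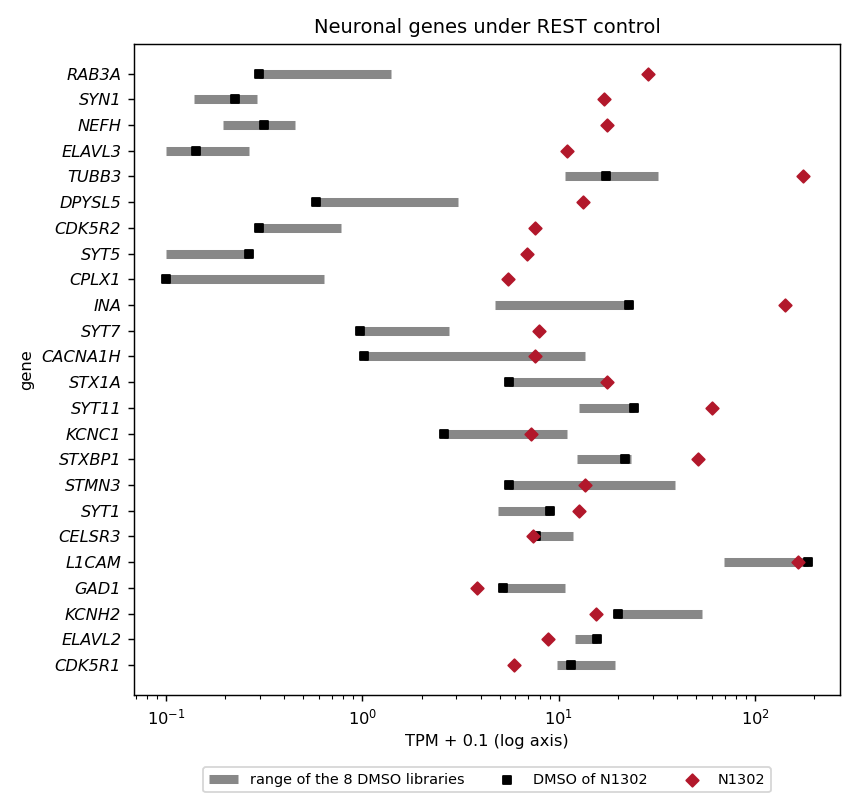
Level of the 24 tested neuronal genes as TPM + 0.1 on a log axis: N1302 (diamond), its DMSO (square) and the range of the 8 DMSO libraries (grey bar). For 14 genes the diamond lies to the right of the whole bar, as for TUBB3 (175 TPM), and for CACNA1H, KCNC1 and STMN3 it lies within the bar.

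Most of the tested genes in the list of linker and replacement histones rose. The list also holds genes of the histone clusters, such as HIST3H2A and HIST1H2AC, so its counts are not of linker and replacement histones alone. Of these 16 genes 10 rose (62.5%), all on both controls, and 1 fell (median 1.25, and 1.13 against the time course DMSO). H1F0, a linker histone that accumulates in non-dividing cells and is known to respond to HDAC inhibitors, went from 157 to 1256 TPM, 8.01-fold (7.73 to 8.30), with 433 to 481 TPM in the other DMSO libraries. HIST3H2A rose from 5.42 to 78.8 TPM, H1FX from 31.3 to 162 TPM and H2AFX, the variant marked at DNA breaks, from 159 to 642 TPM. The fall was in H2AFY2, which encodes macroH2A2, a variant of silent chromatin, from 30.2 to 1.70 TPM. HIST1H2AC rose from 39.7 to 131 TPM (3.30-fold, 2.81 to 3.89). Its promoter (H2AC6 in RefSeq, GRCh38.p14, chr6:26123922-26124221, plus strand) is shown for the elements typical of a cell-cycle histone gene, with TATAAA and CCAAT, on either strand, in capitals.
HIST1H2AC: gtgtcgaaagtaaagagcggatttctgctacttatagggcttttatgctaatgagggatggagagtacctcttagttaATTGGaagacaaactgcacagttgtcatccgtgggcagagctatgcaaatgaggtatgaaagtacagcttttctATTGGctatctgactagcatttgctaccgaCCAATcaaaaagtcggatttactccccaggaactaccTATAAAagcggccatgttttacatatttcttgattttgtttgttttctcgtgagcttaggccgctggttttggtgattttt
TATAAA stood in 7 of 14 tested genes of this list with a promoter in the table (5.16% of all 8830) and CCAAT in 11 of 14 (37.9% of all). Replication-dependent histone mRNAs mostly lack a poly-A tail, and poly-A selection leaves few of them. Of 35 listed, 9 passed the filter, and 6 of these rose, to between 7.41 and 30.8 TPM (median 1.14, and 1.40 against the time course DMSO). As for the neuronal genes, a member low in DMSO could pass only by being high in N1302, so this count leans upward. These genes have near-identical copies, so the split of reads among them is uncertain.

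Most of the tested brakes of the cell cycle rose. Of 7 tested CDK inhibitor genes 5 rose (71.4%) and 1 fell (median 1.52, and 1.98 against the time course DMSO). CDKN1A, which encodes p21, rose from 60.1 to 196 TPM (3.27-fold, 3.07 to 3.48), with 24.9 to 41.6 TPM in the other DMSO libraries. It lies at hg19 chr6:36644237-36655116. Its promoter (RefSeq, GRCh38.p14, chr6:36678464-36678763, plus strand) is shown for its GC boxes, the letters GGGCGG bound by SP1 family factors, of which 4 are in capitals and 2 overlap.
CDKN1A: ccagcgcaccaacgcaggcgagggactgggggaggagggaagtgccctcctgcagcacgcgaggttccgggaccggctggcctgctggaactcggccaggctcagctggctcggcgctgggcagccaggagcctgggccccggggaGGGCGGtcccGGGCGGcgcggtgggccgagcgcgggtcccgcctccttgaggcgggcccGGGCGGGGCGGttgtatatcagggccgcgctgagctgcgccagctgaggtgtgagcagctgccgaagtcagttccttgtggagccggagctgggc
A GC box on either strand stood in 72.3% of the 8830 tested genes with a promoter, in 81.4% of those that rose and in 67.1% of those that fell. The DMSO of N1302 was low for genes rich in GC, as given above, and the part of GC content in these shares was not tested. CDKN2D, encoding p19, rose from 3.91 to 70.1 TPM, 17.9-fold (13.6 to 24.1). CDKN2B and CDKN3 rose on both controls, and CDKN2A rose from 49.0 to 142 TPM but by 0.57 against the time course DMSO. CDKN1B, encoding p27, fell from 97.6 to 38.5 TPM, and by -0.94 against the time course DMSO it was short of 2-fold.

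Of 20 tested G1 cyclins, CDKs and RB family genes 9 fell and none rose (median -0.89, and -1.04 against the time course DMSO), 8 of them on both controls. After GC centring 5 were lower. CDK6, the G1 kinase, fell from 429 to 52.1 TPM, a DMSO level 8.25 times that of N1302 (7.99 to 8.51), and its partner cyclin D1, CCND1, from 35.6 to 7.46 TPM. CDK4 stood at 522 and 334 TPM, CDK2 at 142 and 151 TPM and cyclin E1, CCNE1, at 142 and 159 TPM, all short of 2-fold. Mitosis genes had a median of -0.99 (-0.70 against the time course DMSO) with 15 of 30 fallen, 11 of these on both controls, but after GC centring 4 were lower and 1 higher. Of the 30, 26 lay below all 8 DMSO libraries, beside 48.0% of all tested genes. TOP2A, the topoisomerase that untangles chromosomes, fell from 615 to 232 TPM, while CDK1 stood at 358 and 318 TPM. Of 36 replication genes 6 fell, 5 of them on both controls, and 3 rose, 1 of them on both (median -0.09, and -0.50 against the time course DMSO). Scaling left 2 of the list lower. TYMS, thymidylate synthase, fell from 234 to 73.8 TPM, and TK1, thymidine kinase, rose from 165 to 431 TPM. In the MYC network (median 0.03, and -0.09 against the time course DMSO) the activators MYC (59.9 to 17.3 TPM) and MYCN fell, whereas the antagonists MXD1 (3.17 to 35.9 TPM, 11.3-fold, 9.69 to 13.3) and MXI1 (15.8 to 41.8 TPM) rose.

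In the BCL2 family 6 genes rose and 3 fell among 16 tested (median -0.07, and 0.05 against the time course DMSO). BIK, BBC3, PMAIP1, BCL2L11 and BAD, which promote cell death, rose, as did BCL2L12. BIK went from 0.209 to 13.1 TPM on 2 reads in DMSO (62.9-fold, 16.9 to 527), BBC3, encoding PUMA, from 1.62 to 13.8 TPM (8.53-fold, 5.77 to 13.0), and PMAIP1, encoding NOXA, from 28.7 to 69.7 TPM. BIK and BBC3 passed the filter through N1302 alone. The fallen genes included the survival genes BCL2 (17.4 to 5.87 TPM) and BCL2L1 (11.4 to 5.02 TPM), with BCL2L13 the other. These 3 falls and all rises but that of BCL2L12 held on both controls, but with median-ratio scaling only BCL2 of the 3 remained past 2-fold. The wider list of p53 targets, many of them growth arrest genes, gave 3 rises (13.6%, near the 12.7% of all genes) and 1 fall among 22. Its median was 0.21, and 0.23 against the time course DMSO. GADD45B, a stress sensor, rose from 19.6 to 79.4 TPM, and MDM2, which degrades p53, fell from 71.7 to 20.9 TPM.

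Signalling lists are to be read beside the 25.5% of all tested genes that fell and the 12.7% that rose. Of 23 tested receptor tyrosine kinases 9 fell (39.1%) and 3 rose (median -0.78, and -0.97 against the time course DMSO). The collagen receptor DDR2 fell from 27.1 to 1.58 TPM and the ephrin receptor EPHB3 rose from 13.0 to 64.8 TPM. Of 13 feedback genes of the ERK pathway 7 fell, all on both controls, and 2 rose (median -1.41, and -1.82 against the time course DMSO). SPRY2, an inhibitor of receptor signalling, fell from 106 to 10.1 TPM and the ERK phosphatase gene DUSP6 from 17.5 to 5.99 TPM, while the related DUSP5 rose from 4.68 to 23.2 TPM. Immediate early genes went the other way, with 11 of 18 rising, 8 of these on both controls, and 2 falling (median 1.48, but 0.82 against the time course DMSO). FOS, a subunit of AP-1, rose from 2.31 to 38.3 TPM (16.6-fold, 12.4 to 22.6) and EGR1, a zinc finger factor, from 12.2 to 35.6 TPM, whereas JUN, the other AP-1 subunit, stood at 246 and 135 TPM.

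In the TGF-beta and BMP pathway 15 of 26 genes fell, 8 of them on both controls, and 2 rose (median -1.23, and -0.64 against the time course DMSO). SMAD1, which carries BMP signals to the nucleus, fell from 37.3 to 2.75 TPM, a DMSO level 13.6 times that of N1302 (10.5 to 18), and the extracellular inhibitor NOG from 12.4 to 1.05 TPM. The ligand TGFB1 rose from 34.5 to 76.7 TPM and the decoy receptor BAMBI from 44.1 to 113 TPM. In the Hippo pathway 9 of 19 fell on both controls and 1 rose (median -0.92, and -1.20 against the time course DMSO). YAP1, the coactivator that the pathway restrains, fell from 96.5 to 12.5 TPM (7.69 times, 7.0 to 8.47) and the TEAD cofactor VGLL3 from 344 to 33.3 TPM, yet the YAP target CTGF rose from 65.1 to 195 TPM. Among 23 WNT genes 7 fell (30.4%) and 4 rose (17.4%), shares near those of all genes (median -0.55, and -0.68 against the time course DMSO). The inhibitor DKK1 fell from 21.9 to 0.867 TPM and the nuclear factor LEF1 from 17.7 to 3.12 TPM, and the inhibitors DKK3 (49.6 to 141 TPM) and SFRP1 (29.9 to 70.1 TPM) rose. Among 17 Notch genes (median -0.02, and -0.23 against the time course DMSO) 5 fell (29.4%, and 3 genes after scaling), RBPJ, the DNA-binding effector, among them (156 to 40.0 TPM), and 4 rose, 1 of them on both controls. That was NRARP, a feedback inhibitor, from 0.266 to 7.98 TPM. Of the 14 factors that oppose E-proteins or repress E-boxes 5 fell and 4 rose (median -0.52, and -0.54 against the time course DMSO). ZEB2 fell from 96.5 to 3.78 TPM and MSC, musculin, from 146 to 24.0 TPM, whereas the MYOD1 antagonists ID1 (64.2 to 249 TPM) and ID2 (16.9 to 65.6 TPM) rose, with ID3 at 274 and 168 TPM.

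Organelle, stress and metabolic lists lay mostly above the median of all genes. Of 26 lysosome and autophagy genes 7 rose and none fell (median 0.60, and 0.99 against the time course DMSO). Of the 26, 19 lay above all 8 DMSO libraries, beside 23.5% of all tested genes. MAP1LC3B, which coats autophagosomes, rose from 112 to 373 TPM. Of 22 genes of the ATF4 and unfolded protein responses 6 rose, 3 of them on both controls, and none fell (median 0.39, and 0.50 against the time course DMSO), with the chaperone gene HSPA5 going from 964 to 2268 TPM. Of 23 cholesterol genes 7 rose (median 0.35), but 3 did so on both controls and the median was 0.07 against the time course DMSO. TM7SF2, a sterol reductase, went from 5.16 to 84.2 TPM (16.3-fold, 13.0 to 20.7). In the hypoxia and glycolysis list (median 0.27, and 0.19 against the time course DMSO) 7 of 27 rose, all on both controls, including ALDOC (2.95 to 35.7 TPM) and ENO2 (2.55 to 14.4 TPM), brain forms of glycolytic enzymes, whereas HIF1A itself fell from 237 to 63.1 TPM. The 2 falls of this list, HIF1A among them, reached 2-fold neither against the time course DMSO nor after GC centring. Metallothioneins and zinc carriers had a median of 0.37 (0.99 against the time course DMSO) with 3 of 6 risen and 1 fallen. MT3, among the risen, had 0 reads in DMSO and passed the filter through N1302 alone. MT1X rose from 38.4 to 216 TPM, with 1.21 to 18.8 TPM in the other DMSO libraries, and the zinc importer SLC39A10 fell from 22.8 to 3.49 TPM. Among 12 tested interferon genes 5 rose and 1 fell (median 0.70, and 1.06 against the time course DMSO), with the ubiquitin-like ISG15 going from 57.7 to 184 TPM. For several of these lists the DMSO of N1302 already lay above the other DMSO libraries. The interferon list summed to 1944 TPM in it, beside 724 to 943 TPM in the others and 2175 TPM in N1302. These sums were 3046, 2085 to 2318 and 4372 TPM for the lysosome list, and 467, 229 to 277 and 990 TPM for metallothioneins. For the ATF4 and unfolded protein response list they were 6429, 5305 to 6215 and 9525 TPM. The differences of these lists from the time course DMSO thus include a gap between controls.

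Heat shock genes gave 6 falls of 19 (31.6%, beside 25.5% of all genes, with medians of -0.40 and -0.12 on the 2 controls), of which 1, that of HSPB2 (159 to 33.1 TPM), held on both controls. Among 13 tubulin genes (median 0.33, and 0.41 against the time course DMSO) 4 rose, all on both controls, and none fell: beside TUBB3 these were TUBB2A (14.4 to 113 TPM), TUBB2B (80.2 to 447 TPM) and TUBB4B (893 to 2411 TPM), of which TUBB2A and TUBB2B are near-identical and may share reads. Of 19 matrix genes 4 rose and 1 fell (median -0.10, and 0.32 against the time course DMSO). TIMP3, a protease inhibitor, rose from 30.8 to 143 TPM and the proteoglycan gene VCAN fell from 53 to 12.7 TPM. Of 13 tested HOX genes 5 fell (38.5%) and none rose (median -0.92, and -0.81 against the time course DMSO), but scaling left 2 lower. Of 8 clustered protocadherins 6 fell (median -1.45, and -1.03 against the time course DMSO), although members of a cluster share exons and their reads cannot be split with certainty. Of 23 germline genes, which are often silenced by chromatin, only ZCWPW1 passed the filter, at 7.14 and 3.17 TPM.

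Housekeeping lists had medians between -0.40 and 0.46. Ribosomal protein genes had a median of 0.46 (0.32 against the time course DMSO) with 4 of 42 risen (10 after scaling), none of these on both controls. Of the 42, 35 lay above all 8 DMSO libraries, beside 23.5% of all tested genes. Genes of ribosome biogenesis fell in 7 of 24 cases (29.2%, near the share of all genes), with a median of -0.40 (-0.74 against the time course DMSO), led by UBTF, the RNA polymerase I factor, from 78.9 to 6.63 TPM. The medians were -0.28 for 29 spliceosome genes (5 fell), -0.25 for 30 proteasome genes (2 fell) and 0.14 for 30 genes of oxidative phosphorylation (2 rose and 3 fell). Against the time course DMSO they were -0.81, -0.22 and 0.17. The plot of list medians shows the lists in order under both controls, and 24 of the 46 lists lay above the median of all genes.

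**Figure D4:**
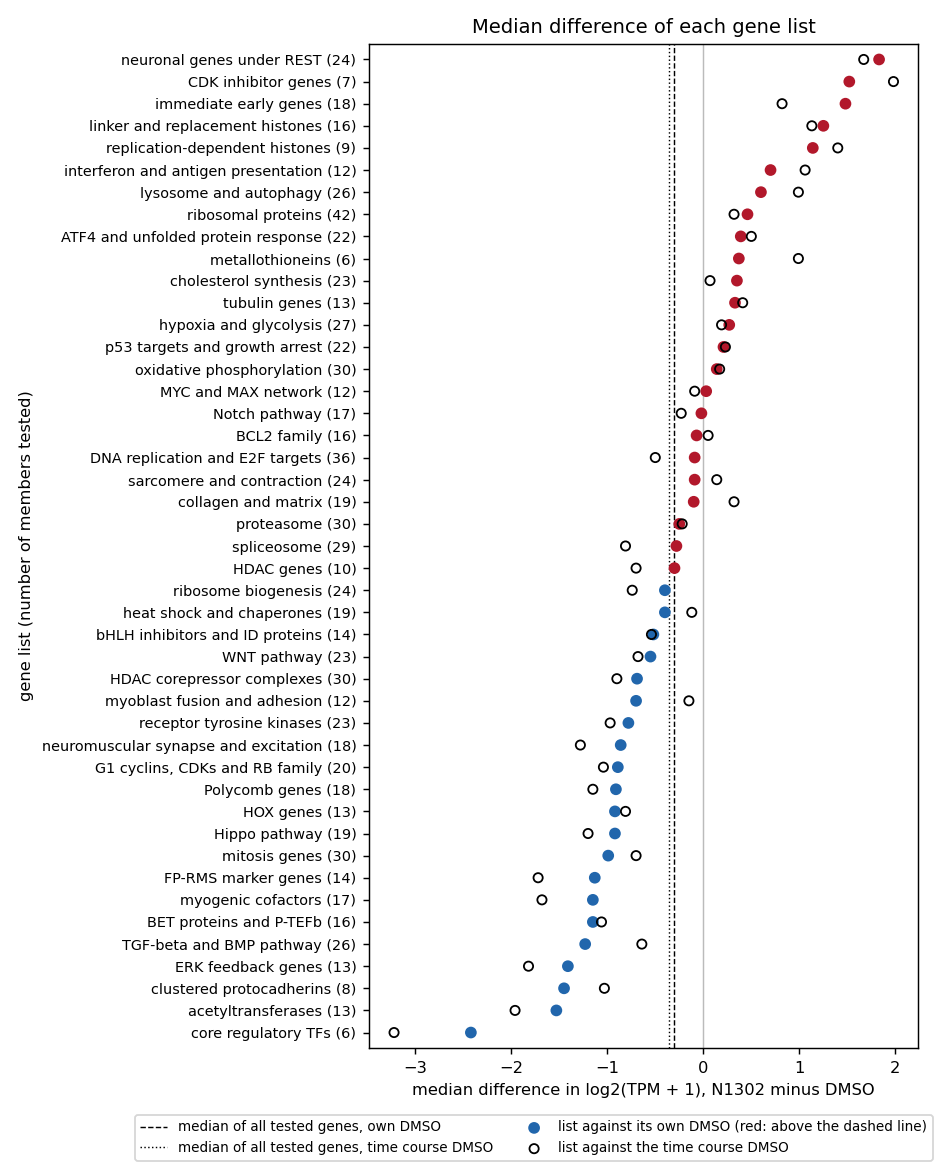
Median difference in log2(TPM + 1), N1302 minus DMSO, for each gene list (number of tested members in brackets), against its own DMSO (filled) and the time course DMSO (open), with the medians of all tested genes, -0.31 and -0.36, as dashed and dotted lines; the list with 1 tested member is left out. CR TFs are lowest on both (-2.42 and -3.22), neuronal genes are highest on the own DMSO (1.83) and CDK inhibitors on the time course DMSO (1.98).

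Among all tested genes with at least 20 reads in the higher library, the lowest differences belonged to the non-coding LINC00689 (29.7 to 0.496 TPM, -4.36), the repressor ZEB2 (-4.35), the growth factor FGF7 (82.4 to 3.22 TPM, -4.31), NNMT and the RNA-binding protein gene IGF2BP1 (65.0 to 2.95 TPM, -4.06). IGF2BP1 stood at 87.8 to 119 TPM in the other DMSO libraries. NNMT, a nicotinamide methyltransferase, fell from 266 to 14 TPM, but the other DMSO libraries held 23.5 to 46.2 TPM, so that most of this difference came from a high level in its own control, and it was -1.45 against the time course DMSO. PALMD was a like case (52.1 to 2.87 TPM, with 3.22 to 22.8 TPM elsewhere). LINC01031 had 0 reads in N1302 and 99 in DMSO, at least 23.1-fold lower at a floor of 3 reads, with 0.839 to 6.32 TPM in the other DMSO libraries. PRDM12, a factor of sensory neurons, fell from 38.5 to 1.65 TPM, ATF7IP, a partner of the histone methyltransferase SETDB1, from 34.3 to 1.53 TPM, and the RNA exonuclease gene XRN1 from 84.1 to 5.13 TPM. ADAMTS5, ZNF804A, ZBTB1, ZBED6 and CAV3 made up the 15, with differences between -3.98 and -3.72. ZBED6 lies within another gene, whose reads it may share.

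The highest difference was that of REEP6, an endoplasmic reticulum protein of photoreceptors, from 2.39 to 105 TPM (43.9-fold, 31.1 to 64.2), with 1.66 to 4.84 TPM in the other DMSO libraries. HRH3, the histamine receptor of the brain, went from 0.0743 to 32.2 TPM on 2 reads in DMSO (434-fold, 120 to 3590). NPAS1, a transcription factor of interneurons, went from 0.333 to 31.2 TPM (93.7-fold, 45.1 to 234), and SLC17A7, the vesicular glutamate transporter, from 0.401 to 27.0 TPM (67.2-fold, 38.2 to 131). IRGM, an autophagy GTPase, went from 0.30 to 26.6 TPM, and the small GTPase gene RND1 from 0.239 to 25.5 TPM. RASD2, PPM1J, TMEM52, DNAAF3, A4GALT and GFPT2 were also among the 15, as were RAB3A and SYN1, and all 15 lay above all 8 DMSO libraries.

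Markers of the labelled lineage were present in both libraries. The 9 skeletal muscle markers summed to 4297 TPM in DMSO and 2580 TPM in N1302 (3191 to 4016 TPM in the other DMSO libraries), and 3 of them fell, MYOG, MYOD1 and ACTC1. Markers of blood cells, endothelium and neural cells stayed below the filter in both libraries, with sums of 3.58 and 9.97, 2.26 and 3.35, and 0.334 and 5.01 TPM. In the other DMSO libraries these sums were 2.79 to 4.61, 1.28 to 4.12 and 0.421 to 0.735 TPM. The neural sum was thus also higher in N1302, though none of the 8 neural cell markers passed 5 TPM. Of the 8 epithelial markers, whose sum went from 2.52 to 18.6 TPM, only CLDN4, a tight junction claudin, passed the filter and rose, from 0.869 to 15 TPM. It passed through its level in N1302 alone. The 8 fibroblast markers summed to 1625 and 995 TPM (1359 to 2188 TPM elsewhere), nearly all of it COL3A1.

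The difference under N1302 moved with transcript length as well as GC content. With genes split into 10 equal bins, from the shortest to the longest transcripts the median went from 0.30 to -1.12 and the share of fallen genes from 9.33% to 54.8%. Against the time course DMSO the same medians were 0.10 and -1.04, and between the 2 DMSO libraries 0.17 and -0.12, so the length pattern was nearly as large with the other control. For GC content the median went from -0.90 in the lowest bin to 0.73 in the highest against the own DMSO, but from -0.54 to -0.10 against the time course DMSO, and the 2 DMSO libraries differed by -0.36 and 0.76 at those ends. Across genes Spearman's rho with the difference was 0.42 for GC content and -0.38 for transcript length (10713 genes each), which share both libraries and are given as descriptions. Genes in the lowest bin of level in the time course DMSO had a median of 0.79, with 45.5% risen, where every other bin had a median between -0.50 and -0.12. The filter admits genes of this bin chiefly through a higher level in another library. The number of CpG in the promoter window was almost unrelated (rho 0.07, 8830 genes).

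**Figure D5:**
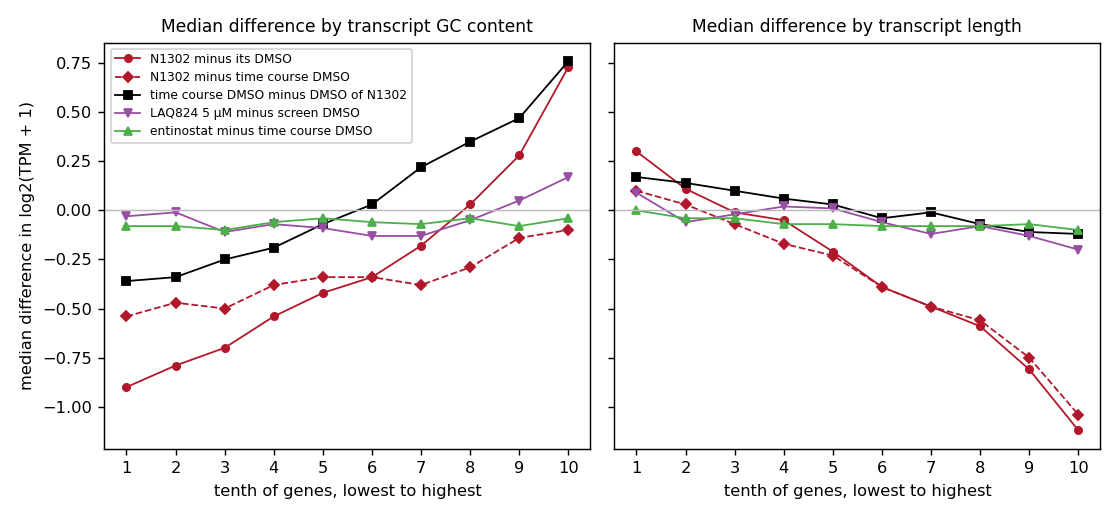
Median difference in log2(TPM + 1) by bin (10 equal bins) of transcript GC content and of transcript length, for N1302 against its own DMSO, N1302 against the time course DMSO, the 2 DMSO libraries against each other, and entinostat and 5 µM LAQ824 against their own controls. The GC slope (-0.90 to 0.73 for the own DMSO) flattens with the other control, and the length slope (0.30 to -1.12) stays (0.10 to -1.04).

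Entinostat, a benzamide labelled as an inhibitor of HDAC1, HDAC2 and HDAC3, was given to RH4 at the same dose and time as N1302, 1 µM for 6 h, with the 6 h time course DMSO as its control. It moved fewer genes: 467 of 11231 rose (4.16%) and 76 fell (0.677%). With 1 library each, the difference between the compounds could not be tested. Over the 10360 genes tested in both, Pearson's r was 0.35. Of the genes that rose with N1302, 13.2% also rose with entinostat, and of those that rose with entinostat 47.5% rose with N1302, which is 142 genes. For falls the shares were 1.29% and 56.5%, which is 35 genes, and 39 genes went opposite ways. MYOG stood at 474 TPM in entinostat beside 32.2 TPM in N1302, MYOD1 at 255 beside 48.5 TPM, and CDK6 at 293 beside 52.1 TPM. The treated levels of CDKN1A, at 128 beside 196 TPM, and H1F0, at 793 beside 1256 TPM, were nearer to each other. Their controls differed, however, so near treated levels do not mean like responses. As given above, the DMSO of N1302 lay below all other DMSO libraries for H1F0 and above them for CDKN1A. SYN1 was at 0.431 TPM and TUBB3 at 22.6 TPM in entinostat. The CR TF median was -0.71 with entinostat, and that of the neuronal genes 0.46.

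LAQ824, a hydroxamate that inhibits HDACs broadly, was given for 6 h at 0.5 and 5 µM in the screen, with 4 DMSO libraries of its own as control, so neither its dose nor its control matched those of N1302. At 5 µM 1769 of 11786 genes rose (15%) and 1753 fell (14.9%). Across the 10561 genes tested in both, r with N1302 was 0.79 at 5 µM and 0.81 at 0.5 µM. Of the rises with N1302 66.2% were rises with 5 µM LAQ824 (858 genes, 62.7% of those of LAQ824), and of the falls 45.4% (1208 genes, 75.9% of those of LAQ824), with 18 genes opposite. The CR TF medians were -2.72 and -2.54 at the higher and lower dose, beside -2.42 for N1302. PAX3 was a member where the treated levels stood far apart, at 1.19 TPM in N1302 and at 13.4 and 12.6 TPM in LAQ824. Its controls differed as well, at 12.4 TPM in the DMSO of N1302 and 38.6 to 43.9 TPM in the screen DMSO libraries, so PAX3 was lower with both compounds. TOP2A, at 232 TPM in N1302, was at 632 and 615 TPM in LAQ824. TUBB3 was at 175 TPM in N1302 and at 175 and 172 TPM in LAQ824, and HRH3 at 32.2 beside 32.3 and 34.5 TPM. The neuronal medians were 1.98 and 2.05 beside 1.83 for N1302. Transcript length was less marked with 5 µM LAQ824, with medians of 0.09 and -0.20 in the shortest and longest bin beside 0.30 and -1.12 for N1302. Whether these gaps between compounds exceed the spread between libraries could not be tested with 1 library of each.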

How the data were processed

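Libraries were paired-end per the labels. Per the study's methods they were made from poly-A RNA, mapped on hg19 by STAR and quantified by RSEM. The tables the authors deposited hold TPM, 1 value per gene and library, each library summing to 1000000. The submitters' processing notes also name edgeR, without saying what for. Groups were taken from the labels. Differences of log2(TPM + 1) were computed over genes of 5 TPM or more in either library. Whole read numbers were recovered as the smallest that fitted the TPM of a gene in all 52 libraries within 0.02 (23645 of 23645 expressed genes; 5737939 to 41415071 reads per library), and the step was tested on simulated data. RSEM estimates need not be whole, so how reads were assigned is uncertain, and the counting intervals rest on the recovered numbers. Gene lists (46, with 6 of cell markers) and members were chosen with earlier results of these data known. Named by rule were the 15 highest and 15 lowest genes with at least 20 reads and no small RNA or LOC symbol, CR TFs, HDAC genes and the 3 highest and 3 lowest of each list. A few further members, and genes set beside other compounds, were chosen after their values were seen. Alternatives covered scaling (genes of 10 TPM or more), pseudocount (0.1), filters, reference, small RNA genes and threshold (1.5-fold). Others were added after seeing the data: centring within 20 bins of GC content, the time course DMSO as reference, and calls outside all 8 DMSO libraries. Python 3.11.15, numpy 2.4.6, pandas 2.3.3, scipy 1.17.1 and matplotlib 3.10.9 were used. Gene coordinates are hg19 as deposited, and promoters are RefSeq sequences of GRCh38.p14, found by symbol for 8830 of the tested genes (81.3%). MYOD1, SOX8 and FOXF1 were not matched. Some genes that the rule names are not reported here.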

Additional observations from a re-analysis of the deposited data

How the results depend on the processing

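Of the 1385 higher and 2775 lower genes, a threshold of 1.5-fold gave 2232 and 4321, and GC centring left 1569 lower. Over all other alternatives the counts ran from 1125 to 1930 higher and up to 3360 lower, within 1.5 times the reported counts. The CR TF median of -2.42 became -2.21 with scaling, -2.63 with a pseudocount of 0.1, -2.85 against the mean of both 6 h DMSO libraries, -2.33 with GC centring and -3.22 against the time course DMSO alone. The number of the 46 lists above the median of all genes was 20 to 24. Of 208 named genes past 2-fold, 201 were so with scaling and 177 with GC centring, and 167 of the 206 that could be compared were so against the time course DMSO alone, where DYSF (0.68) and HDAC10 (-1.08) reversed. The cause of these shifts was not tested. No paired analysis was possible because each condition had 1 library, and no replicate could be left out. Reads limit low genes: 125 tested genes had fewer than 20 reads in the higher library. The spread between cultures under N1302 is not known from these data, so a call here compares 2 libraries. Both lay outside the other 7 DMSO libraries in their gap across GC content, at -1.18 for the DMSO library and 0.35 for N1302. The gap was 0.38 with 5 µM and 0.51 with 0.5 µM LAQ824, and -0.08 with entinostat at 6 h.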

Other observations

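Some genes crossed from near silence to expression. Under 1 TPM in all 8 DMSO libraries and at 5 TPM or more in N1302 were 70 genes, 5 of them at 20 TPM or more (TMEM52, HRH3, RASD2, LOC729083 and IRGM). The set had a rule on values of N1302 itself, so its size is a description. Members picked here after their values were seen were the claudin gene CLDN1 (9.31 TPM, at most 0.649 TPM in DMSO), the plakoglobin gene JUP (12.3 TPM, at most 0.561) and LLGL2 (14 TPM, at most 0.429), SNCB, encoding beta-synuclein (6.48 TPM, at most 0.126), and the calcium sensor gene HPCA (7.38 TPM, at most 0.325). VDR, the vitamin D receptor, reached 7.67 TPM from at most 0.484 TPM. In LAQ824 36 of the 70 reached 5 TPM at 5 µM and 36 at 0.5 µM, and in entinostat 0 did. BAIAP3 stood at 13.2 TPM in N1302 and 80.5 TPM in 5 µM LAQ824, while IRGM stood at 26.6 TPM in N1302 and 1.55 TPM in 5 µM LAQ824. MIR6086, also in the set, rested on 1 read.

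The opposite crossing, from 5 TPM or more in all 8 DMSO libraries to under 1 TPM in N1302, was made by 46 genes. They included the chromatin genes KAT6B (0.786 TPM, 7.43 to 13.7 TPM in DMSO) and SETD1B (0.833 TPM, 7.31 to 15.9), the opioid receptor gene OPRD1 (0.401 TPM, 13.5 to 35.9) and the kinase gene HUNK (0.886 TPM, 15.4 to 42.1). KAT6B was at 3.37 TPM and HUNK at 2.28 TPM in 5 µM LAQ824. CRYBG3, at 0.939 TPM in N1302, was at 7.25 TPM in 5 µM LAQ824 and within 5.13 to 9.98 TPM in DMSO. Small RNA genes in the set, such as SNORD2, lie within other genes and are poorly measured by poly-A selected libraries.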
